A study of Mus musculus with 58 samples.

Results

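Fstl3 and 9 other genes of activin and transforming growth factor beta (TGF beta) signalling were followed in the mouse retina over the day, in diabetic and in control mice. All 10 gene symbols (Fstl3, Fst, Inhba, Inhbb, Gdf11, Tgfb2, Acvr1b, Acvr2a, Acvr2b and Smad7) were found among the 52459 gene rows, and all 10 passed the filter of a median above 4 normalized counts, which 19120 genes passed. The list was proposed with results of these libraries known, and which values were used is not recorded. It is treated here as chosen by the difference between diabetic and control retinas, where Fstl3 stood out. That difference is therefore described by its values, and the counts of members called in it are printed only beside the share of all genes called. The rhythm over the day and the difference in rhythm are tested, on the assumption that they did not choose the members.

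Diabetic mice were male heterozygous C57BL/6-Ins2Akita/J mice, which carry 1 mutant copy of the insulin 2 gene in all cells, make misfolded insulin in the beta cells of the pancreas and become hyperglycemic. Controls were their wild-type male littermates, and both were 4 months old and kept in 12 h of light and 12 h of dark. Retinas were taken at 6 zeitgeber times (ZT, hours after lights on), with 5, 6, 5, 5, 5 and 4 control libraries and 5, 5, 5, 4, 4 and 5 diabetic libraries at ZT1, 5, 9, 13, 17 and 21. Each of the 58 libraries held ribosomal-RNA-depleted RNA of a single retina, with 7773117 to 22147398 reads counted on genes.

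Activins are dimers of inhibin beta subunits, and with GDF11 and the TGF beta ligands they form a branch of a large family of secreted signals. Activins and GDF11 bind a type II receptor, ACVR2A or ACVR2B, which activates a type I receptor such as ACVR1B, and this phosphorylates SMAD2 and SMAD3 in the cytoplasm. Follistatin and follistatin-like 3 are secreted proteins that wrap around activins, GDF11 and myostatin and keep them from their receptors, and SMAD7 is an inhibitor inside the cell that the pathway itself induces. In the eye these signals are best known for TGF beta 2, a main isoform of the ocular fluids, and for GDF11, which times the birth of retinal neurons in development.

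RefSeq promoters (GRCm38.p6) were available here for 8 of the members, and the 250 bases before the start are shown for 4 of them: Fstl3, for its difference between genotypes, and Gdf11, Acvr1b and Tgfb2, whose fitted peaks in diabetic retinas lay between ZT18.2 and ZT19.9. Capitals mark the E-box CACGTG, the letters CAGAC or their reverse complement GTCTG (the core bound by SMAD proteins), and TATAAA or its reverse complement TTTATA, searched on both strands. These motifs do not overlap one another here. The sequences are from chr10:79777024-79777273 (plus strand), chr10:128891719-128891968 (minus strand), chr15:101173822-101174071 (plus strand) and chr1:186705990-186706239 (minus strand), 5′ to 3′ in the direction of the gene.
Fstl3: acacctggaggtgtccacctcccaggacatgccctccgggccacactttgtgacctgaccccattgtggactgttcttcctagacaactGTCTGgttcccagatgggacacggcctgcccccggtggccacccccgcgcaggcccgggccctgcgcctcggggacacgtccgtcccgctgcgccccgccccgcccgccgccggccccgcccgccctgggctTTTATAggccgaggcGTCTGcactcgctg
Gdf11: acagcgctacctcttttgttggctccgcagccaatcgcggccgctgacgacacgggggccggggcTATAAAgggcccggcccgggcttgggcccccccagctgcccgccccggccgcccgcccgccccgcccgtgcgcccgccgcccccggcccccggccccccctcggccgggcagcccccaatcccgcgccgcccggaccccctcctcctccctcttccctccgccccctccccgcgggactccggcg
Acvr1b: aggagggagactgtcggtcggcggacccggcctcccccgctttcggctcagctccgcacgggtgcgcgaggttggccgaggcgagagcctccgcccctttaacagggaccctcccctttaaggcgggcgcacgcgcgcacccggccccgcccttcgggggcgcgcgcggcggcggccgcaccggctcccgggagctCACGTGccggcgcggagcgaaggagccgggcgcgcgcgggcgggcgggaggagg
Tgfb2: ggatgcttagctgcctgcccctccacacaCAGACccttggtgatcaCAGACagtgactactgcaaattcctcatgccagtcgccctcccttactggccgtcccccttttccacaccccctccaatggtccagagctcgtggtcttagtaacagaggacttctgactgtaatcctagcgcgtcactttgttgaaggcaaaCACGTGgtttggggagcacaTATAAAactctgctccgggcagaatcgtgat
An E-box, the letters bound by the clock proteins CLOCK and BMAL1, stood 54 bases before the start of Acvr1b and 51 bases before that of Tgfb2. It was absent from the windows of the other 6 members searched, among them Gdf11 and Inhba. The D-box TTATGTAA, also searched, was found only in Inhba, 123 bases before the start, and in 0.819% of all windows. The E-box was found in 6.02% of the 32851 mouse promoter windows of this length. The SMAD core was found in 4 of the 8 members, with 2 matches each in Fstl3 and Tgfb2, and in 42.2% of all windows. The TATA letters, present in 4 of the 8 members and in 12.4% of all windows, stood 29 bases before the start of Fstl3 and 31 bases before that of Tgfb2, and in Gdf11 185 bases before the start. A match of letters is a description of the window and does not show that a factor binds there.

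The libraries carried the markers of retina. Summed rod marker counts were 493384 to 736787 in control and 480563 to 676565 in diabetic libraries, and the summed markers of the other retinal cell types also overlapped between genotypes. By edgeR over all time points, 1 marker each of cones (Gnat2, log2 difference -0.12, adjusted p = 0.00705), microglia (Cx3cr1, -0.22, adjusted p = 0.0396) and lens (Cryaa, -5.02, adjusted p = 0.000736) was lower in diabetic retinas. The summed counts were 9347 to 11494 and 8886 to 11160 for the 4 cone markers, and 114 to 185 and 95.0 to 182 for the 4 microglia markers, in control and diabetic libraries. For the 5 lens markers they were 5.29 to 30484 and 4.92 to 651. Summed markers of the pigment epithelium (5 of 5 passed the filter, none was called) ranged from 253 to 2546 in control, with a median of 1318, and from 239 to 2830 in diabetic libraries, with a median of 873. The part of these cell types in the results was not tested. The highest lens sum was that of control ZT1 replicate 6, against a control median of 16.6. Control ZT17 replicates 1 and 3 and diabetic ZT17 replicate 3 lay among the farthest libraries on the first principal component, which held 31.2% of the variance, and results are also given without these 3.

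Per kilobase of exon, the receptors and TGF beta 2 were the most abundant and follistatin the least. Over all libraries, the mean level was 320 normalized counts per kb for the type I receptor Acvr1b, 234 for Tgfb2, 202 for Acvr2b and 138 for Acvr2a. It was 91.0 per kb for Gdf11 and 81.4 for Smad7, followed by 38.5 for Fstl3, 14.7 for Inhbb (the beta B subunit), 11.9 for Inhba (the beta A subunit) and 1.24 for Fst. Within each genotype, the ranges of 1 SD around the mean overlapped for Gdf11 and Smad7 and for Inhbb and Inhba. Those of Tgfb2 and Acvr2b overlapped in control retinas only (232 ± 17.2 and 209 ± 16.9 per kb, n = 30) and not in diabetic retinas (236 ± 19.5 and 195 ± 14.4 per kb, n = 28). Fst rested on 1 to 19 raw reads per library, so that its values carry a large counting error, while Fstl3 had 35 to 218.

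**Figure D1:**
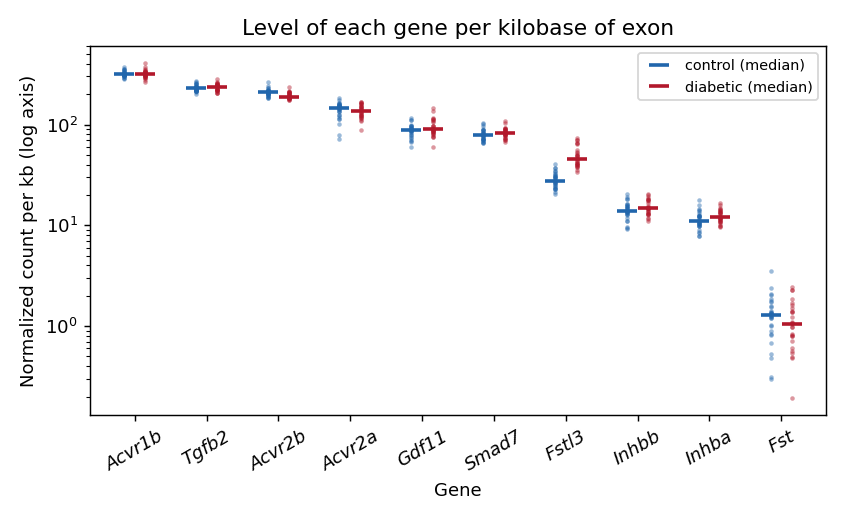
Normalized count per kilobase of exon (log axis) of the 10 genes, ordered by their mean over all libraries, with 1 point per retina and a bar at the median of each genotype. Acvr1b stands highest at 320 per kb and Fst lowest at 1.24 per kb, and the genotypes lie farthest apart for Fstl3.

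Fstl3 was higher in diabetic than in control retinas at every one of the 6 time points. The gene lies at chr10:79777272-79782630 on the plus strand (GRCm38). In control retinas its normalized counts were 63.3, 66.8, 68.7, 71.6 and 73.8 at ZT1, and at ZT5 the lowest was 56.1, the median 64.6 and the highest 84.8. They were 55.7, 56.1, 71.7, 75.3 and 85.5 at ZT9, and 57.7, 60.7, 64.4, 77.4 and 90.1 at ZT13. They were 52.8, 75.8, 79.5, 81.3 and 99.7 at ZT17, and 50.5, 61.8, 66.1 and 90.1 at ZT21. Control retinas thus stayed below 100 normalized counts throughout, with the highest value at ZT17.

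In diabetic retinas the counts were 96.7, 101, 101, 107 and 114 at ZT1, and 83.6, 92.4, 111, 131 and 170 at ZT5. They were 85.9, 97.5, 128, 137 and 181 at ZT9, and 92.7, 98.5, 106 and 121 at ZT13. They were 95.8, 157, 159 and 160 at ZT17, and 98.4, 119, 119, 121 and 173 at ZT21. The genotypes did not overlap at ZT1, ZT9, ZT13 and ZT21, while at ZT5 and ZT17 the lowest diabetic library lay below the highest control library. Of all genes tested, 0.0366% (7 genes) did not overlap at 4 or more of the 6 time points.

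**Figure D2:**
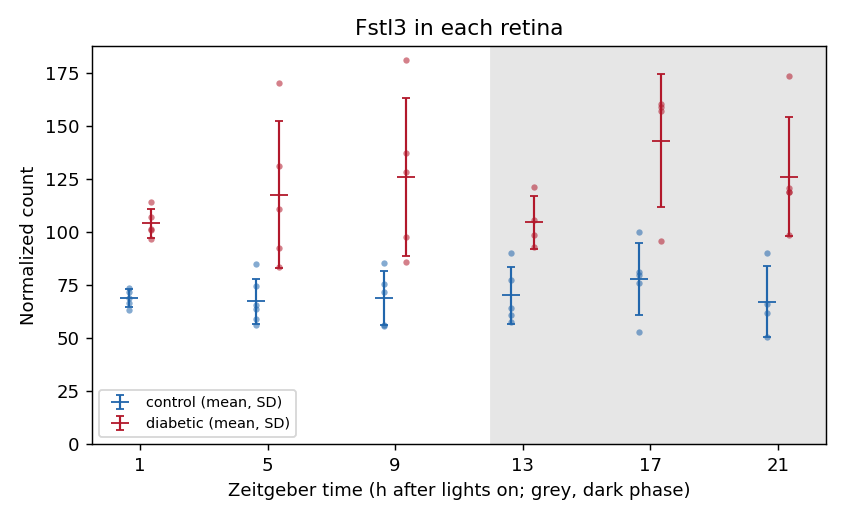
Fstl3 normalized counts by zeitgeber time, 1 point per retina, with the mean and SD of each genotype and time point and the dark phase in grey. Control retinas lie between 50.5 and 99.7 and diabetic retinas between 83.6 and 181.

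Over all time points, Fstl3 averaged 70.0 ± 12.3 normalized counts in control (SD, n = 30) and 120 ± 28.4 in diabetic retinas (SD, n = 28), a log2 difference of 0.78 ± 0.08 (SE) or 1.71-fold. Of the 28 diabetic libraries, 19 lay above the highest control library, and 25 of the 30 control libraries lay below the lowest diabetic library. By time point, the difference was smallest at ZT13, with 0.56 ± 0.20 on the log2 scale (SE), and largest at ZT17 and ZT21, with 0.89 ± 0.18 and 0.89 ± 0.19. Leaving out any single library kept the overall difference between 0.75 and 0.80, and without the 3 libraries named above it was 0.79. The spread between diabetic retinas was wider at ZT9 (SD 37.4) than at ZT1 (SD 6.72). Fstl3 shares bases 79781474 to 79782630 of chromosome 10 with Prss57, a serine protease gene on the other strand, which averaged 3.21 normalized counts in control and 3.15 in diabetic retinas. Whether the counting used strand is not given in the sources used here.

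No other member differed between genotypes by as much relative to its error. In edgeR's quasi-likelihood fit across the whole day, 2 of the 10 members had an adjusted p under 0.05, Fstl3 and Acvr2b, while 3.19% of all genes tested did. Nothing is read from this count, since the contrast is the one taken to have chosen the members. The median log2 difference was 0.04 over the 10 members and 0.00 over all 19120 genes.

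Fst, the closest relative of Fstl3 among the members, had a slightly lower mean in diabetic retinas, with a difference about as large as its error. It averaged 6.07 ± 3.02 normalized counts in control (n = 30) and 5.28 ± 2.67 in diabetic retinas (n = 28), a log2 difference of -0.19 ± 0.18 (SE), with 4 of 6 time points lower in diabetic retinas. None of the 4 ligand genes was called. Inhba averaged 73.0 ± 14.8 and 79.6 ± 11.8, a log2 difference of 0.13 ± 0.07, which ranged from -0.15 at ZT13 to 0.40 at ZT1. Inhbb differed by 0.08 ± 0.07, Gdf11 by 0.11 ± 0.06 and Tgfb2 by 0.02 ± 0.03 on the log2 scale. Inhba, Inhbb, Gdf11 and Tgfb2 all overlapped widely between genotypes.

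Among the receptor genes, Acvr2b was lower in diabetic retinas. It averaged 822 ± 66.5 normalized counts in control and 765 ± 56.7 in diabetic retinas, a log2 difference of -0.11 ± 0.03 (SE) or 0.930-fold. At ZT21 its values were 818 to 905 in control (n = 4) and 691 to 778 in diabetic retinas (n = 5), without overlap, as for 2.23% of all genes at that time point. At ZT13 it was slightly higher in diabetic retinas, with a log2 difference of 0.03 ± 0.07. Acvr2a, the other type II receptor, differed by -0.03 ± 0.07, Acvr1b by 0.00 ± 0.03 and the intracellular inhibitor Smad7 by 0.07 ± 0.04.

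At single time points, 1 of the 60 comparisons of a member and a time point was called, Fstl3 at ZT17. The shares of all genes called by the same test were largest at ZT17, with 0.251%. They were 0.0209% at both ZT1 and ZT5, 0.00523% for ZT9, and 0% for ZT13 and ZT21. The genes called at the 6 time points together numbered 57, and leaving out 1 library gave from 11 (diabetic ZT17 replicate 5) to 133 (diabetic ZT17 replicate 1). At ZT13 and ZT21, 838 and 948 genes had an unadjusted p under 0.05 in edgeR, and DESeq2 called 1 and 2. The count of member calls was 0 without diabetic ZT17 replicate 4 or 5, and 4, all Fstl3, with DESeq2 or with the replicate number as a block. As above, nothing is read from it.

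**Figure D3:**
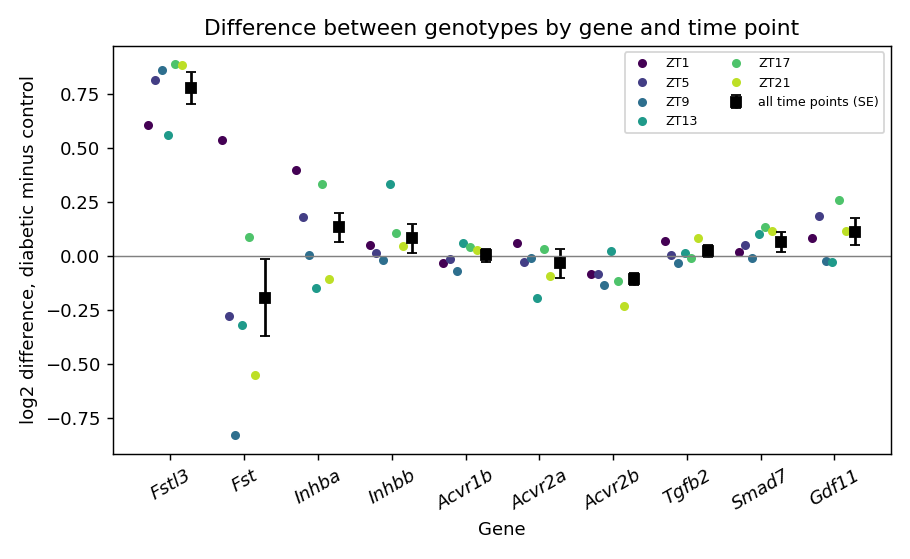
Log2 difference (diabetic minus control) of each gene, with a coloured point for each time point and a black square with its SE for all time points together. Fstl3 lies between 0.56 and 0.89 at all 6 time points, Acvr2b at or below 0.03, and the other genes lie on both sides of 0 or close to it.

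Time of day was the second question, and Gdf11 and Acvr1b were called rhythmic in both genotypes at an unadjusted p. After adjustment, Acvr1b kept its call in diabetic retinas only. Rhythm was tested within each genotype with the empirical JTK_CYCLE test, which compares each gene with 24-h waveforms, and a rhythm was called at an unadjusted p under 0.05 where the highest library exceeded the lowest by more than 25%. By this rule 2 of 10 members were rhythmic in control retinas, beside 21.8% of all genes, and 5 of 10 in diabetic retinas, beside 23.9%. With a Benjamini-Hochberg adjusted p under 0.05, 1 member was rhythmic in control retinas (8.43% of all genes) and 2 in diabetic retinas (10.4% of all genes). The shares of members were based on only 10 genes. The median amplitude was 5.74% of the mean over the control values of the members and 7.49% over the diabetic ones, beside 7.07% and 7.26% over all genes.

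Gdf11, a ligand of the activin type II receptors, had the clearest rhythm. In control retinas its normalized counts were 316, 332, 349, 355 and 371 at ZT1, and at ZT5 the lowest was 274, the median 304 and the highest 380. They were 244, 300, 305, 357 and 389 at ZT9, and 340, 351, 356, 365 and 397 at ZT13. They were 370, 376, 394, 448 and 454 at ZT17, and 355, 378, 402 and 476 at ZT21. Control retinas were thus lowest in the light phase, at ZT5 and ZT9, and highest in the dark phase, at ZT17 and ZT21.

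In diabetic retinas Gdf11 counts were 329, 337, 359, 393 and 396 at ZT1, and 315, 344, 349, 360 and 431 at ZT5. They were 241, 305, 325, 347 and 367 at ZT9, and 304, 344, 376 and 388 at ZT13. They were 369, 441, 555 and 591 at ZT17, and 353, 455, 459, 461 and 469 at ZT21. All 4 libraries at ZT17 lay above the 5 at ZT9, and the same 2 time points marked the highest and the lowest mean. Since these time points were picked from the same values, their separation is a description.

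The fitted cosine of Gdf11 had its peak (acrophase) at ZT18.5 and an amplitude of 14.0% of the mean in control retinas, and for diabetic retinas these were ZT19.1 and 18.1%. The unadjusted p of JTK_CYCLE was 0.00123 in control and 0.000946 in diabetic retinas (adjusted p = 0.0228 and 0.0169). Gdf11 kept its call without each library, without each time point, and in every alternative test run in both genotypes. Without the 3 libraries that stood apart at ZT17 its unadjusted JTK_CYCLE p was 0.00504 in control and 0.00303 in diabetic retinas. The gene lies at chr10:128882295-128891718 on the minus strand, on the same chromosome as Fstl3.

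Acvr1b, the type I receptor for activins, also peaked in the dark phase. Its mean was lowest at ZT5 in control retinas (1347 ± 31.9, SD, n = 6) and highest at ZT17 (1506 ± 92.0, SD, n = 5). In diabetic retinas it was lowest at ZT9 (1332 ± 127, SD, n = 5) and highest at ZT17 (1552 ± 185, SD, n = 4). The ranges at these time points did not overlap in control retinas, with 1290 to 1379 at ZT5 and 1417 to 1647 at ZT17. They overlapped in diabetic retinas, with 1172 to 1513 at ZT9 and 1387 to 1815 at ZT17. These time points were picked from the same values, and the share of all genes separated in this way was not computed, so the ranges are a description. The acrophase was ZT19.1 in control and ZT18.2 in diabetic retinas, with small amplitudes of 4.88% and 7.98% of the mean. The unadjusted JTK_CYCLE p was 0.0116 and 0.00275 (adjusted p = 0.0929 and 0.0333). In control retinas the call was lost in 5 of 43 alternatives, without ZT5 or ZT17, with an adjusted p, with the fold taken over time-point means, and in edgeR's test of any difference among the 6 time points (unadjusted p = 0.0516). In diabetic retinas it was lost in 1 of 41, with the fold of time-point means.

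Inhba, Tgfb2 and Acvr2b were called rhythmic in diabetic retinas and not in control retinas. Inhba was highest from ZT17 to ZT1 there, with 86.0 to 90.1 at ZT17, 69.0 to 103 at ZT21 and 74.7 to 107 at ZT1, against 61.2 to 79.5 at ZT9. Its acrophase was ZT21.9, with an amplitude of 12.1% and an unadjusted JTK_CYCLE p of 0.00607 (adjusted p = 0.0551), and the call was lost without ZT9 or ZT13 and with the adjusted p. In control retinas, where 4 libraries at ZT21 held 78.2 to 114 and 4 of the 5 at ZT17 lay below all of these, the unadjusted p was 0.273. Without control ZT17 replicates 1 and 3 it was 0.0207, which the rule would call.

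Tgfb2 had an acrophase of ZT19.9 and an amplitude of 5.03% in diabetic retinas, with an unadjusted JTK_CYCLE p of 0.0344 (adjusted p = 0.165). That call was lost on leaving out 1 diabetic library in 11 of 28 cases, with unadjusted p-values from 0.0550 to 0.0694, and in 21 of 41 alternatives in all. These included leaving out ZT1, ZT5, ZT9, ZT17 or ZT21, TMM-scaled CPM (0.0608), the cosine test in edgeR (0.0769) and its test of any difference among the 6 time points (0.413). Acvr2b peaked earlier than the other 4, at ZT12.8, with an amplitude of 5.60% and an unadjusted p of 0.0142 (adjusted p = 0.0942). Its 4 diabetic libraries at ZT13 lay close together, at 817 to 834, above the 5 at ZT21, at 691 to 778. Those time points had the highest and the lowest mean and were picked from the same values, so this is a description. Its call was lost without diabetic ZT17 replicate 3, where the highest library no longer exceeded the lowest by 25%, and also without ZT13, ZT17 or ZT21, in 8 of 41 alternatives in all.

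Fstl3 itself was not called rhythmic in either genotype. The unadjusted JTK_CYCLE p was 0.821 in control and 0.529 in diabetic retinas, with fitted amplitudes of 5.12% and 6.996% of the mean. None of the alternative tests or left-out libraries and time points called it. Smad7 and Inhbb were close to the threshold in diabetic retinas, both with an unadjusted p of 0.0677, and Smad7 was called in 4 and Inhbb in 3 of the 28 runs short of 1 diabetic library. Fst and Acvr2a had unadjusted p-values of 0.548 and 0.309 in control and 0.713 and 0.357 in diabetic retinas.

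**Figure D4:**
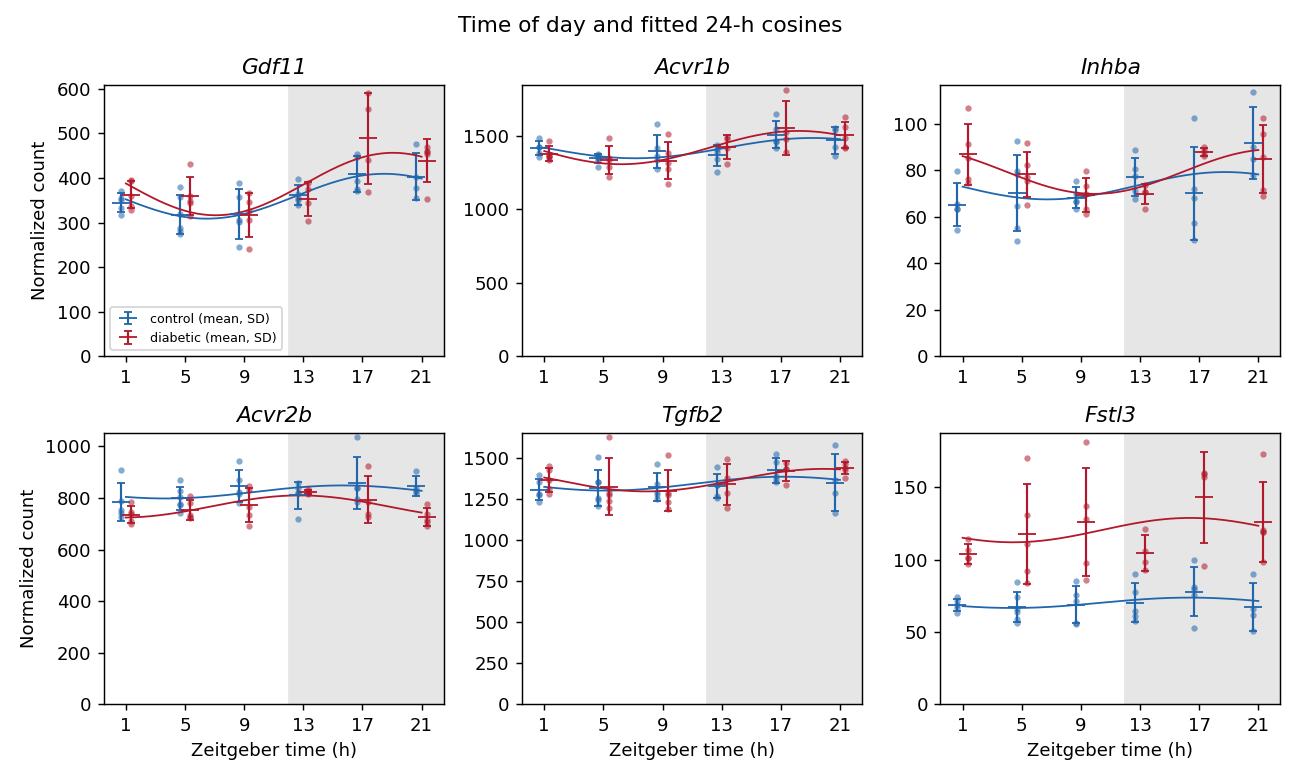
Normalized counts by zeitgeber time for Gdf11, Acvr1b, Inhba, Acvr2b, Tgfb2 and Fstl3, with 1 point per retina, the mean and SD of each group, and the 24-h cosine fitted within each genotype. Gdf11 rises from ZT9 to ZT17 in both genotypes, and Fstl3 shows genotypes at separate levels with fitted amplitudes of 5.12% and 6.996%.

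A call in diabetic retinas alone does not show that the rhythm differed, so the difference was tested as an interaction of genotype with the cosine and sine of 24 h in edgeR. None of the 10 members had an adjusted p under 0.05 (the lowest was 1.00), and 0% of all genes tested did. At an unadjusted p under 0.05 there were 0 members and 699 genes, or 3.66% of all genes, and DESeq2's likelihood ratio test called 0 genes. The smallest unadjusted p of a member in edgeR was 0.352, for Inhba, which was not called rhythmic in control retinas. The Fstl3 interaction had an unadjusted p of 0.972. All 10 members had a larger fitted amplitude in diabetic retinas, by 0.304 percentage points for Acvr2a and up to 15.4 for Fst. Fstl3, Fst, Inhbb, Acvr2a and Smad7 were called rhythmic in neither genotype, and Fst rested on 1 to 19 raw reads per library. Nothing is therefore read from this direction. Of all genes tested, 52% had a larger amplitude in diabetic retinas.

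The rest of the pathway was followed in a list of 73 further genes of the TGF beta, activin and bone morphogenetic protein (BMP) branches, of which 63 passed the filter. Over all time points, 3 were called higher and 1 lower in diabetic retinas by edgeR, or 6.35% of the 63, where 3.19% of all genes were called (1.73% higher and 1.46% lower). Cdkn1a, a cell cycle inhibitor that SMADs can induce, rose from 27.7 ± 8.0 (SD, n = 30) to 40.0 ± 14.7 normalized counts (SD, n = 28), a log2 difference of 0.52 ± 0.12 (adjusted p = 0.00642). Klf10, an early TGF beta response gene, rose by 0.20 ± 0.05 (adjusted p = 0.0270) and the ligand Gdf10 by 0.37 ± 0.11 (adjusted p = 0.0489). The ligand Gdf9 fell by 0.57 on the log2 scale (SE 0.14, adjusted p = 0.0157), at 8.54 normalized counts in control retinas. By role, 2 of 15 ligands, 0 of 9 receptors, 0 of 13 binding proteins and inhibitors, 0 of 15 SMADs and their regulators and 2 of 11 targets were called. Of the binding proteins and inhibitors, 7 of 13 had an unadjusted p under 0.05 in edgeR, as did 16 of the 63 genes and 16.0% of all genes tested. The median log2 difference of the 63 genes was 0.02, and that of the 11 targets was -0.06. Of the targets, 5 had an unadjusted p under 0.05 in edgeR. Cdkn1a and Klf10 were higher in diabetic retinas, while Id2 (-0.15 ± 0.06), Ctgf (-0.16 ± 0.08) and Cdkn2b (-0.38 ± 0.17) were lower.

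In the same list, 9 genes were rhythmic in control retinas (14.3% of the 63) and 19 in diabetic retinas (30.2%), and 6 in both. These shares stood below the 21.8% of all genes in control and above the 23.9% in diabetic retinas. The ligands Tgfb1, Gdf5 and Bmp4 were among those rhythmic in both. Rhythmic in diabetic retinas were also the receptors Bmpr2, Tgfbr2 and Tgfbr3, which bind BMPs and TGF beta, with acrophases at ZT18.0, ZT20.8 and ZT14.5. As with the members, no gene of the list had a difference in rhythm after adjustment in edgeR, and 6 of the 63 had an unadjusted p under 0.05, where 3.66% of all genes did. The 5 smallest unadjusted p-values of that test were those of Tgfbi (0.00980), Gdf3 (0.0172), Acvrl1 (0.0224), Id2 (0.0267) and Ctgf (0.0378). Tgfbi, a matrix protein gene induced by TGF beta, had fitted amplitudes of 11.2% (control) and 32.8% (diabetic), and was not called rhythmic in control retinas (unadjusted permutation p of JTK_CYCLE = 0.921), so its phase there is not compared.

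Across the 58 libraries, the genes whose log2(normalized count + 1) followed Fstl3 most closely were Rhbdf2 (Pearson r = 0.76), Tbc1d17 (0.74), Phc1 (0.74), Papd7 (0.73) and Selenbp1 (0.73). At the other end stood Gm16262 (-0.76), Gpr89 (-0.75) and Etohd2 (-0.73). The libraries share their genotype, time point and composition, so these values are a description. Around the means of each genotype, the r with Fstl3 was 0.55 to 0.69 for the first 5, -0.58 for Gm16262, -0.60 for Gpr89 and -0.32 for Etohd2. Of the members, Smad7 (0.43) and Gdf11 (0.41) had the highest r with Fstl3 and Acvr2a the lowest (-0.37). Around the means of each genotype these were 0.46, 0.43 and -0.57, and the r of Acvr2b turned from -0.18 to 0.33.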

How the data were processed

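Single retinas were sequenced after ribosomal RNA depletion (58 libraries, 30 control and 28 diabetic). The authors deposited raw counts per gene symbol, made with STAR 2.7.4a and HTSeq 0.11.1 on GRCm38.p5 with the Gencode M15 annotation. These counts were neither normalized nor filtered. Each column was matched to its sample by title, and 0 columns of other samples were left out. Library totals ranged from 7773117 to 22147398, which limits genes near the filter. For the 113 pairs of replicates, the chi-square per degree of freedom was at least 1.86, so none was a repeat. The paper describes biological replicates at each time point, and the labels do not say whether 2 libraries came from 1 mouse. The p-values therefore measure the spread between libraries.

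Normalized counts are counts divided by DESeq2 1.42.0 size factors, and genes with a median above 4 were kept. Genotypes were compared with edgeR 4.0.16 in R 4.3.3 (TMM, glmQLFit with the newer method set explicitly, glmQLFTest), with 1 group per genotype over all time points and 12 groups for single time points, and p-values were adjusted by Benjamini-Hochberg over 19120 genes. The JTK_CYCLE test was rewritten in Python 3.11.15 with 30 waveforms and 1000000 shuffled series, or 200000 where libraries were left out. The difference in rhythm was tested in edgeR, since the package used in the study was not run. The steps were tested on simulated data. Gene positions and exon lengths are from Gencode M21 (GRCm38).

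Members and gene lists were chosen with earlier results of these data known. Named genes are the 10 members, of the pathway list those called over all time points (at most 3 in each direction) and the 5 with the smallest p in the difference in rhythm, and the genes most and least like Fstl3. Genes listed as rhythmic, and targets listed at an unadjusted p, are further examples chosen after their values were seen. Alternatives were other size factors, filters, fits and tests, a replicate block, and libraries or time points left out. The main fits have no replicate block.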

Additional observations from a re-analysis of the deposited data

Results flagged for a closer look

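In 7 of the 120 groups of 4 to 6 libraries tested over the members, the highest or lowest library stood apart from the others by Dixon's 95% limit, and chance gives about 5% of groups. Fstl3 was 95.8 normalized counts in diabetic ZT17 replicate 1, while the other 3 libraries held 157 to 160. Gdf11 was 353 in diabetic ZT21 replicate 2, below the other 4 at 455 to 469. Acvr2b was 1035 in control ZT17 replicate 3, above 786 to 837 in the others, and 720 in control ZT13 replicate 2, below 817 to 857. Acvr2a was 582 in control ZT9 replicate 4, below 845 to 925. Acvr1b was 1466 in diabetic ZT1 replicate 3, above 1336 to 1365. Tgfb2 was 1631 in diabetic ZT5 replicate 4, above 1196 to 1289. Control ZT17 replicate 3 and control ZT9 replicate 4 were also among the 4 libraries farthest out on the first principal component.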

How the results depend on the processing

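The log2 difference of Fstl3 stayed between 0.74 and 0.80 in all 66 alternatives and that of Acvr2b between -0.12 and -0.09, and no called direction reversed. Over all time points 2 members were called, but 1 without a filter, where Acvr2b was not, and leaving out single libraries left 2. At single time points, where 1 of 60 was called, the count was 2 without a filter, 4 with DESeq2, and 0 to 2 without single libraries, with 4 also under the replicate block. Every such call was Fstl3. It was 0 without diabetic ZT17 replicate 4 or 5 and 2, with Fstl3 also called at ZT5 or ZT9, without diabetic ZT5 replicate 2 or 3, ZT9 replicate 3 or ZT17 replicate 1. Of all genes, the calls at single time points rose from 57 to 129 with DESeq2 and 90 with the replicate block, and fell to 24 without the 3 libraries apart at ZT17, an alternative chosen after seeing the data. They were 11, 28 and 133 without diabetic ZT17 replicate 5, 4 or 1, and 32 without control ZT17 replicate 3. Over all time points, the mean of the 6 contrasts called 917 genes in place of 610. The difference in rhythm called 0 members in every alternative, and 3 genes without a filter, 2 with the block and 1 without control ZT1 replicate 6 or control ZT17 replicate 5.

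Of the rhythm calls, 2 members in control retinas became 1 with an adjusted p, with the fold taken over time-point means, or with a test of any difference among time points, and 1 to 3 with libraries or time points left out. The 5 members in diabetic retinas became 2 with an adjusted p, 2 with the fold of means and 3 with the test of any difference, and 3 to 6 with libraries or time points left out. Of the 2 members called at an adjusted p in diabetic retinas, 1 was left without a filter. With the fold of means, the genes rhythmic fell to 2532 in control and 2710 in diabetic retinas. The replicate block changed the rhythm count to 2 and 5, from 2 and 4 in the cosine test without it. Deviations from the group means correlated above 0.1 in 19 of 26 same-numbered pairs (median r 0.26, from -0.44 to 0.81) and in 32 of 114 other pairs of a time point (median -0.08), and 26 of 52 libraries correlated best with their own number. Same-numbered pairs were thus more closely correlated at the median. The labels tie no number to a shared litter or batch, so the main fits do not pair by number and the block is given as an alternative. Whether same-numbered libraries share an effect was not tested. The cause of these changes was not tested. Depth limits Fst most, at 1 to 19 reads per library.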
